A study of Mus musculus with 9 samples.

Results

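The genes described here are 10 cardiomyocyte genes of contraction, calcium release, endocrine signalling and electrical coupling, measured by RNA sequencing in mouse cardiosphere-derived cells. They were chosen by name, as Tnnt2, Tnni3, Myh6, Myh7, Myl7, Actc1, Nppa, Nppb, Ryr2 and Gja1, and all 10 were found among the 54532 genes of the deposited table. Cardiosphere-derived cells are heart cells that grow out of explanted tissue, round up into floating spheres and are then replated as a monolayer. The 9 libraries fell into 3 groups of 3. The pECDC group held untreated primary cells, titled P0, from C57BL/6 mouse heart ventricle, which the study's methods describe as ventricular epicardium. Those methods put the primary cells of the experiments at passage 3, so the passage of the pECDC libraries is not settled by the title. The iECDC group held untreated cells at passage 30, made from such primary cells with a lentivirus that carried human telomerase reverse transcriptase (hTERT) under a CMV promoter and selected with puromycin. The SB431542-treated group held, by its labels, hTERT-immortalized cells at passage 30 given SB431542 for 3 days, a compound that blocks the kinase of the type I receptor for TGF-β. The study's methods instead describe the SB431542-treated input as an epithelial clone from primary cells, so whether hTERT, passage, clone or inhibitor separates that group from the others cannot be told apart. No group of cardiomyocytes or heart tissue was analysed here.

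In a heart muscle cell, myosin heads of the thick filament pull on the actin thin filament when calcium, released through the ryanodine receptor, binds the troponin complex. Connexin 43 forms the gap junction channels through which the current passes to the next ventricular cell, and it is made by many other cell types as well. The natriuretic peptides are hormones that the stretched atrium and ventricle release. Outside the heart muscle cell these genes differ in use, since smooth muscle and fibroblasts have their own actin and myosin genes.

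Of the 10 genes, 7 were at or near 0 in all 9 libraries, and Gja1, Tnnt2 and Tnni3 were counted in every library. These 3 passed the count filter used for testing over all libraries, as did 14210 of the 54532 genes in the table. Low counts were thus common among all genes. Total counts per library ranged from 19462912 to 23951392 in pECDC, from 16568306 to 20204216 in iECDC and from 17063137 to 20849975 in SB431542-treated cells. A count of 0 at these depths allows up to 3 counts, or 1.25e-05% to 1.81e-05% of a library, and such floors cover counting error only. In the SB431542-treated group replicate 2 stood apart (chi-square per degree of freedom of 71.55 and 70.33 against replicates 1 and 3, which gave 3.788 between themselves), and in the iECDC group replicate 3 did (30.76 and 24.92, against 4.607 between replicates 1 and 2). The pECDC libraries lay between 2.701 and 4.229. By this measure SB431542-treated replicate 2 lay closer to untreated iECDC replicate 3 (64.54) than to either other library of its own group. Results are therefore also given without SB431542-treated replicate 2 or iECDC replicate 3. Nothing in the labels ties the libraries of a group to separate cultures or animals, so p-values measure only the spread between these libraries, which may be technical.

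**Figure D1:**
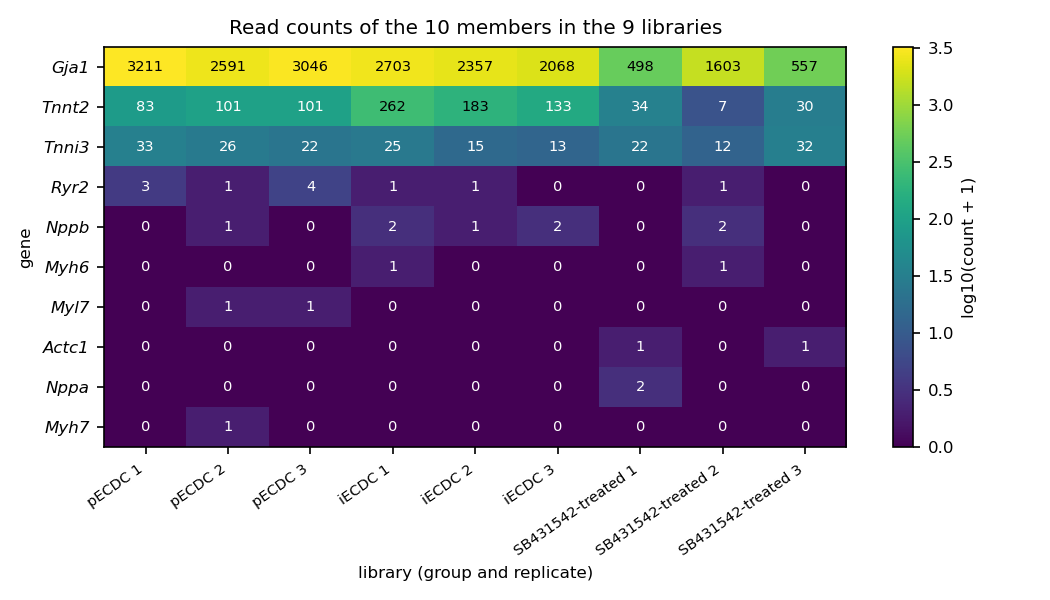
Deposited read counts of the 10 genes (vertical axis) in each of the 9 libraries (horizontal axis, group and replicate), with the count printed in each cell and the colour showing log10(count + 1). Gja1, Tnnt2 and Tnni3 were counted in all 9 libraries, and no other gene passed 4 counts in any of them.

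The thick filament genes were at the floor. Myh6 (α-myosin heavy chain, the main motor protein of the adult mouse ventricle, chr14:54941921-54966927, minus strand, in the deposited table's coordinates) had 1 count in iECDC replicate 1, 1 count in SB431542-treated replicate 2 and 0 in the other 7 libraries. Myh7 (β-myosin heavy chain, the fetal and slow form, chr14:54970684-54994626, minus strand) had 1 count in pECDC replicate 2 and 0 in the other 8. Myl7 (the atrial regulatory light chain, chr11:5896637-5898782, minus strand) had 1 count each in pECDC replicates 2 and 3 and 0 in the other 7. No group had a library above 1 count for any of these genes, and no difference between groups was detectable at this depth. The coding sequences of Myh6 and Myh7 were 91.7% identical with an unbroken identical run of 245 bases, so that reads could be split between them, but their summed count was also at most 1 in every library. Antisense transcripts overlap exons of both genes (Gm49130, Gm29015, Gm31251 and Mhrt), and the counting is not stated to use strand. They too had at most 1 count in any library.

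The cardiac actin of the thin filament was also near 0 while its smooth muscle relative was among the abundant genes of these cells. Actc1 (cardiac α-actin, chr2:114047282-114053548, minus strand) had 1 count in SB431542-treated replicates 1 and 3 and 0 in the other 7 libraries. Acta2, the smooth muscle α-actin, had 32177, 25329 and 30497 counts in pECDC replicates 1 to 3, 29186, 24824 and 51944 in iECDC and 4273, 12080 and 4414 in SB431542-treated cells. Acta1, the skeletal α-actin, had 0 to 9 counts. The coding sequences of Actc1 and Acta2 were 82.5% identical over 1134 aligned bases, with no identical run longer than 23 bases, and none of the 1035 windows of 100 bases of Actc1 occurred in Acta2. The first 120 coding bases of both, from the GENCODE transcripts on GRCm38, are shown to let the separation be seen, with the 24 bases at which they differ in capitals.
Actc1: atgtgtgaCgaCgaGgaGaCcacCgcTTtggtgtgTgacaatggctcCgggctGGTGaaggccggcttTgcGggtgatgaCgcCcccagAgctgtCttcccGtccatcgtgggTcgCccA
Acta2: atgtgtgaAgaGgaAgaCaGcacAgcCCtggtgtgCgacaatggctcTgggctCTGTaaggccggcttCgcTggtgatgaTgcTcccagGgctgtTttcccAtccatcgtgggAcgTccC
The differing letters lie scattered through the stretch.

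Of the 3 members that carry calcium release and hormone signalling, none reached 5 counts. Ryr2 (the calcium release channel of the cardiac sarcoplasmic reticulum, chr13:11553102-12106945, minus strand) had 3, 1 and 4 counts in pECDC, 1, 1 and 0 in iECDC and 0, 1 and 0 in SB431542-treated cells. The highest values were in pECDC, but the groups overlapped and the gene did not pass the count filter for testing. Nppb (B-type natriuretic peptide, chr4:147985788-147987205, plus strand) had 0, 1 and 0 counts in pECDC, 2, 1 and 2 in iECDC and 0, 2 and 0 in SB431542-treated cells. Nppa (atrial natriuretic peptide, chr4:148000722-148002079, plus strand) had 2 counts in SB431542-treated replicate 1 and 0 elsewhere. Gm13054, on the opposite strand, overlaps 532 of the 865 exon bases of Nppa and had 0 to 3 counts. Over the 7 genes near 0 there were 28 counts in 63 gene and library pairs, 44 of which were at 0, with 12 counts in pECDC, 8 in iECDC and 8 in SB431542-treated cells.

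Tnnt2, cardiac troponin T, which anchors the troponin complex to tropomyosin, was the member whose level passed the test in all 3 comparisons. Its counts were 83, 101 and 101 in pECDC, 262, 183 and 133 in iECDC and 34, 7 and 30 in SB431542-treated cells. In FPKM, fragments scaled by gene length and library depth, it was at 0.437, 0.654 and 0.558 in pECDC, 1.67, 1.44 and 1.12 in iECDC and 0.250, 0.0429 and 0.214 in SB431542-treated cells. All iECDC libraries lay above all pECDC libraries, and all SB431542-treated libraries lay below both. The group means were 0.550 ± 0.109, 1.41 ± 0.280 and 0.169 ± 0.111 FPKM (SD, n = 3).

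Gja1, the gap junction protein connexin 43, was the most abundant of the 10 genes. Its counts were 3211, 2591 and 3046 in pECDC, 2703, 2357 and 2068 in iECDC and 498, 1603 and 557 in SB431542-treated cells. Per length and depth it was nearly level across pECDC and iECDC, at 12.7 ± 0.0379 and 13.4 ± 0.516 FPKM, and lower in SB431542-treated cells at 4.40 ± 2.63 FPKM (SD, n = 3). The wide SD of the treated group came with its replicate 2, at 7.43 FPKM against 2.77 and 3.01, and all 3 treated libraries lay below the other 6. Gja1 stood above 71.4% of the 14210 genes that passed the count filter over all libraries by mean FPKM in pECDC, 72.2% in iECDC and 45.8% in SB431542-treated cells. By the same measure Tnnt2 stood low in every group, above 13.6%, 26% and 4.28% of these genes. Tnni3 did too, at 14.1%, 13.9% and 13.5%.

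Tnni3, cardiac troponin I, the inhibitory subunit of the same troponin complex as Tnnt2, was low and overlapped between all groups. Its counts were 33, 26 and 22 in pECDC, 25, 15 and 13 in iECDC and 22, 12 and 32 in SB431542-treated cells, and its mean levels were 0.581 ± 0.108, 0.484 ± 0.102 and 0.581 ± 0.292 FPKM (SD, n = 3). Its exons (chr7:4518305-4524229, minus strand) share 86 of 2063 bases with Dnaaf3 on the same strand, which had 32 to 89 counts and reads there cannot be assigned to either gene. The part of Dnaaf3 in the value of Tnni3 was not tested.

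**Figure D2:**
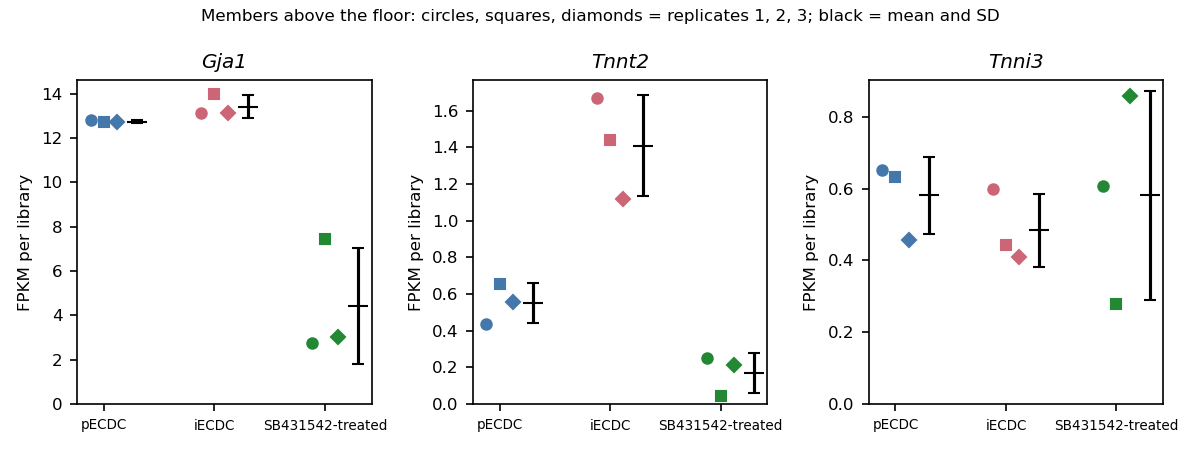
FPKM of Gja1, Tnnt2 and Tnni3 (vertical axes, each on its own scale from 0) in the 3 groups, with circles, squares and diamonds for replicates 1, 2 and 3 and the group mean and SD in black. Tnnt2 separates all 3 groups, Gja1 is lower in the treated libraries with replicate 2 nearest to the others, and Tnni3 overlaps throughout.

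The order of levels between these genes depends on the length used. The deposited FPKM divides by a listed gene length of 7752 bases for Tnnt2, 10257 for Gja1 and 2063 for Tnni3, which is 6.46, 3.22 and 2.26 times the longest coding transcript in GENCODE. With the same gene counts divided by the length of that transcript, Tnnt2 was at 3.55 ± 0.705 in pECDC, 9.10 ± 1.81 in iECDC and 1.09 ± 0.715 in SB431542-treated cells, and Tnni3 at 1.31 ± 0.244, 1.10 ± 0.230 and 1.31 ± 0.660. Reads from outside that transcript stay in these counts, so the values are upper bounds for it. Gja1 was at 41.0 ± 0.121, 43.1 ± 1.66 and 14.2 ± 8.47 on this scale and remained the highest of the 10 genes in each group. In pECDC Tnnt2 and Tnni3 did not differ beyond their spread by deposited FPKM, while per transcript length Tnnt2 was the higher. As upper bounds, the latter values do not settle which of these genes was higher. Values of the same gene between groups do not depend on the length.

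The first question was whether these genes differed between primary and immortalized cells. Between iECDC and pECDC Tnnt2 was 2.57-fold higher (log2 fold change 1.36, SE 0.194, edgeR quasi-likelihood test, Benjamini-Hochberg adjusted p = 0.00202 over 13752 genes). Tnni3 had a log2 fold change of -0.25 (SE 0.274, adjusted p = 0.568) and Gja1 of 0.06 (SE 0.058, adjusted p = 0.522). Thus 1 of the 3 members tested rose and 0 fell, where 16.4% of all genes tested were called (7.21% higher and 9.21% lower). The other 7 genes did not pass the count filter and were not tested in this fit. With all 9 libraries in 1 fit the log2 fold change of Tnnt2 was again 1.36 but its adjusted p was 0.0657. Without iECDC replicate 3 it was 1.51 (adjusted p = 2e-06), and on the log2(FPKM + 1) scale with limma, which understates changes of low genes, it was smallest at 0.63.

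The treated cells were compared with iECDC to ask what differed with the TGF-β receptor inhibitor. Tnnt2 was 8.4-fold lower (log2 fold change -3.07, SE 0.478, edgeR adjusted p = 0.00378) and Gja1 3.02-fold lower (log2 fold change -1.59, SE 0.343, adjusted p = 0.0121), while Tnni3 had a log2 fold change of 0.25 (SE 0.432, adjusted p = 0.686). Of the 3 members tested 2 fell, where 30.0% of 13559 genes were called, 16.0% higher and 14.0% lower. Without SB431542-treated replicate 2 the fall of Gja1 was larger, at -2.20 (adjusted p = 5.78e-07), and that of Tnnt2 smaller, at -2.59 (adjusted p = 4.11e-05). With that library and iECDC replicate 3 both left out the values were -2.22 and -2.74. The library that stood apart therefore had the highest Gja1 and the lowest Tnnt2 of its group. Tnni3 turned to -0.14 (adjusted p = 0.856) without SB431542-treated replicate 3.

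Against pECDC the treated cells had 3.27-fold lower Tnnt2 (log2 fold change -1.71, SE 0.503, edgeR adjusted p = 0.036) and 2.87-fold lower Gja1 (-1.52, SE 0.355, adjusted p = 0.0163). For Tnni3 the log2 fold change was 0.00 (SE 0.403, adjusted p = 0.994). Again 2 of 3 members tested fell, where 34.8% of 14015 genes were called, 17.9% higher and 17.0% lower. These calls were less firm than those against iECDC. With the replicate number as a block in the edgeR fit, Tnnt2 did not pass (-1.79, adjusted p = 0.0586) and Gja1 did (-1.67, adjusted p = 0.0131). Neither gene passed without pECDC replicate 1, 2 or 3 or without SB431542-treated replicate 3, with adjusted p up to 0.116 for Tnnt2 and 0.058 for Gja1 and the direction kept. Without SB431542-treated replicate 2 both passed, at -1.22 for Tnnt2 (adjusted p = 0.000103) and -2.13 for Gja1 (adjusted p = 1.51e-16). This comparison shares its libraries with the other comparisons, so the 3 are not independent of each other.

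**Figure D3:**
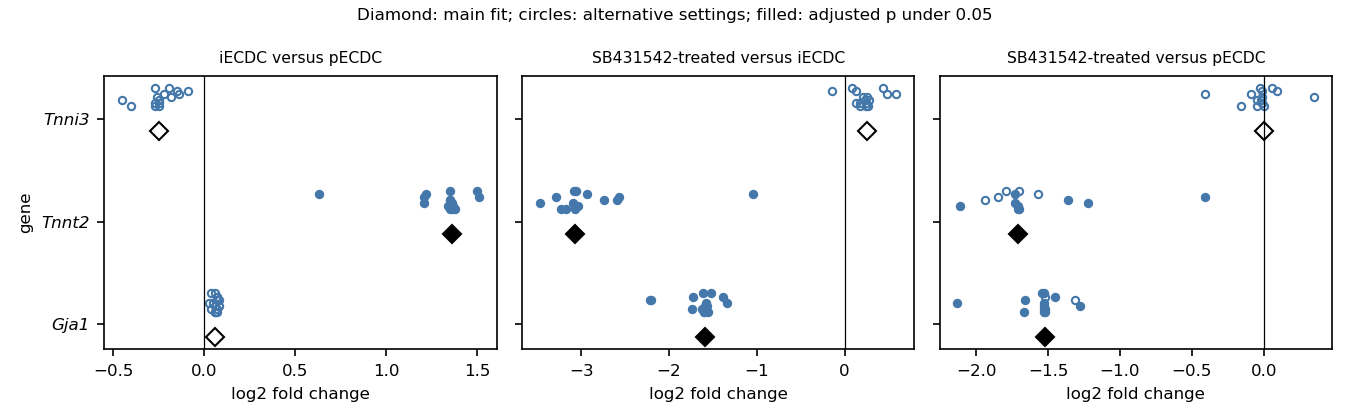
Log2 fold change (horizontal axes) of Gja1, Tnnt2 and Tnni3 in the 3 comparisons, with a diamond for the reported fit, a circle for each alternative setting, and filled symbols where the adjusted p was under 0.05. Tnnt2 and Gja1 keep their side of 0 in every setting shown, and the circles of Tnni3 cross 0 in both comparisons of the treated cells.

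In bulk RNA fewer cells of a type and less RNA per cell cannot be told apart. As group levels, the summed smooth muscle markers were lowest in the treated cells, as Gja1 and Tnnt2 were. The FPKM summed over 10 smooth muscle markers was 835 to 857 in pECDC, 929 to 2120 in iECDC and 167 to 380 in SB431542-treated cells. Most of each sum was Acta2 alone, with means of 728, 1190 and 199 FPKM in these groups, so the sums say little of the other markers. Mylk was highest in the treated cells, at 0.295, 0.157 and 1.01 FPKM. Against pECDC 4 of the 10 markers tested fell in treated cells and 1 rose, where 17.0% of all genes tested fell and 17.9% rose. SB431542-treated replicate 2 had the 380 and iECDC replicate 3 the 2120. Within these groups Tnnt2 did not follow the sums, as the same libraries had its lowest values, 0.0429 and 1.12 FPKM. Gja1 was highest of its group in SB431542-treated replicate 2, at 7.43 FPKM. In iECDC replicate 3 it was at 13.1, against 13.1 and 14.0 in replicates 1 and 2. Between SB431542-treated cells and iECDC 5 of the 9 markers tested fell and 1 rose, with Acta2 at a log2 fold change of -2.56 (SE 0.448, edgeR adjusted p = 0.00581) and the myosin light chain Myl9 at -2.39 (adjusted p = 0.00424), while the myosin kinase gene Mylk was at 2.70 (adjusted p = 0.00441). In the comparison of iECDC with pECDC, where Tnnt2 rose, 2 of the 10 smooth muscle markers tested rose and 1 fell, and the smooth muscle myosin gene Myh11 was 4.14-fold higher (log2 fold change 2.05, SE 0.325, adjusted p = 0.00339), a gene named after its value was seen. There 5 of the 9 fibroblast markers tested fell and 1 rose, with the collagen gene Col3a1 at -0.89 (SE 0.124, adjusted p = 0.00182) and the growth factor receptor gene Pdgfra at -0.57 (SE 0.0585, adjusted p = 0.000332). In SB431542-treated cells 4 of 8 fibroblast markers tested rose against iECDC and 1 fell. Over all genes tested, 16.0% rose and 14.0% fell in treated cells against iECDC. In iECDC against pECDC 7.21% rose and 9.21% fell. The FPKM summed over the 10 fibroblast markers was 2240 to 2270 in pECDC, 2150 to 2710 in iECDC and 1860 to 2890 in SB431542-treated cells, and of these genes Lum and Postn had at most 12 counts and were at 0 in some libraries. Endothelial markers summed to at most 0.205 FPKM, and of 14 skeletal muscle markers 8 were at 0 in every library. The part of the smooth muscle and fibroblast markers in the values of Gja1 and Tnnt2 was not tested.

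The promoters of Tnnt2 and Gja1 are shown because these genes moved, each as 250 bases before to 50 after the start in RefSeq on GRCm38.p6, plus strand, chr1:135836084-135836383 for Tnnt2 and chr10:56377050-56377349 for Gja1. Capitals mark matches on either strand to the letters CATTCC (the M-CAT element, which TEAD factors bind), TGANTCA (the AP-1 element) and GATAA (read by GATA factors, and TTATC on the opposite strand).
Tnnt2: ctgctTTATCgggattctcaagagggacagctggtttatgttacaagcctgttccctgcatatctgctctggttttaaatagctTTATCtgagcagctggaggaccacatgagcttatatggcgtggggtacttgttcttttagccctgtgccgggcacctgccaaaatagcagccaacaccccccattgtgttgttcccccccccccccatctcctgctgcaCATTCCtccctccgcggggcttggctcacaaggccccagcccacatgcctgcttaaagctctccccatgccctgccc
Gja1: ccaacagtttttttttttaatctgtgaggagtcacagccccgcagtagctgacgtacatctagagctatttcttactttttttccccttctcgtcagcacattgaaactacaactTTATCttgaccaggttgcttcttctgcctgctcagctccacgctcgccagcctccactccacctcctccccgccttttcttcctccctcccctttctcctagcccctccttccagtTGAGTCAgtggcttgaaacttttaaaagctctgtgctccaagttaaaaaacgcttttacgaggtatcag
The Tnnt2 window held an M-CAT match at -27 and GATAA matches at -245 and -166, counted to the leftmost base of the match with the start at 1. The Gja1 window held an AP-1 match at -19 and a GATAA match at -135. Of 32817 RefSeq promoter windows of this length 14.7% held CATTCC, 7.81% TGANTCA and 25.4% GATAA. The letters CAGAC, a SMAD element, were in 49.6% of all windows and in neither of these, and neither held a CArG box or a MEF2 element, which 1.63% and 3.19% of windows held. None of the marked matches overlap. All 10 genes had a window in the table, and a further window of Tnnt2, at chr1:135836739-135837038, held none of these motifs.

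The other genes of the contractile, conduction and cardiac programmes were given by 9 lists of 133 genes, without the 10 members. Over all 9 libraries 67 of the 133 passed the count filter, where 14210 of all 54532 genes did. Of these 133 genes 39 had at most 3 counts in every library, among them the calcium pump regulators Pln and Sln, myoglobin (Mb), the potassium channel gene Kcnj11 and the transcription factor genes Hand1 and Irx4, all at 0 throughout. Between iECDC and pECDC 8 of 65 tested genes rose and 11 fell, which is 29.2% called against 16.4% of all genes, with a median log2 fold change of -0.05 against 0.00 over all genes. Between SB431542-treated cells and iECDC 13 of 63 rose and 12 fell (39.7% against 30.0%, median 0.02 against 0.00), and against pECDC 12 of 66 rose and 16 fell (42.4% against 34.8%, median -0.10 against 0.01).

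**Figure D4:**
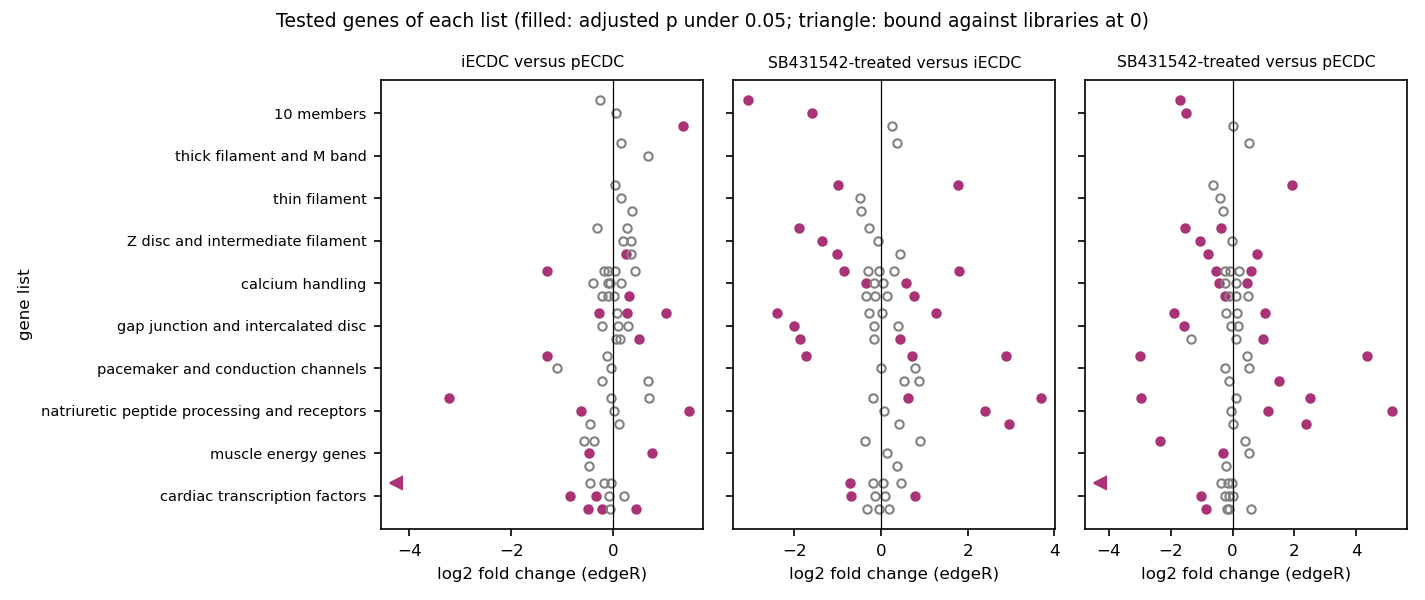
Log2 fold change (horizontal axes, scaled for each panel) of every tested gene by gene list (vertical axis) in the 3 comparisons, filled where the edgeR adjusted p was under 0.05, with a triangle for Nkx2-5 at its bound against libraries at 0. The lists hold genes on both sides of 0, and Tnnt2 and Gja1 are the filled points of the member row in both comparisons of the treated cells.

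Among the sarcomere genes the specific thick filament parts were low. Of 11 thick filament and M band genes 4 had at most 3 counts in every library and none of those tested passed, and the atrial essential light chain gene Myl4 was counted 26 to 46 times per library. In the thin filament list Tnnc1, troponin C of cardiac and slow muscle, had 24, 28 and 22 counts in SB431542-treated cells against 61, 44 and 32 in iECDC (log2 fold change -0.98, SE 0.253, edgeR adjusted p = 0.0228). Against pECDC it was at -0.62 (SE 0.252, adjusted p = 0.0981). Tmod1, tropomodulin, which caps the thin filament and was named after its value was seen, went the other way at 39, 11 and 37 counts against 8, 10 and 6 in iECDC (1.77, SE 0.569, adjusted p = 0.0478). The tropomyosin genes Tpm1 and Tpm2, which smooth muscle and fibroblasts use too, were abundant, at 132 and 73.4 FPKM in SB431542-treated cells and 187 and 102 in iECDC, a difference that did not pass the test (adjusted p = 0.084 and 0.163). Of the Z disc genes 3 of 6 tested fell against iECDC and 0 rose, where 14.0% of all genes tested fell and 16.0% rose. The stretch-responsive repeat protein gene Ankrd1 was at -1.89 (SE 0.317, adjusted p = 0.00504), the scaffold gene Pdlim5 at -1.01 (SE 0.156, adjusted p = 0.00374) and the Z disc gene Ldb3 at -1.36 (adjusted p = 0.00265), of which Ldb3 was named after its value was seen. Actn2, the α-actinin of the cardiac Z disc, had 1 count in pECDC replicate 2 and 0 elsewhere.

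Calcium handling genes ranged from abundant to absent. Atp2a2, the calcium pump of the reticulum, was at 82.0 ± 1.25 FPKM in pECDC, 84.0 ± 3.59 in iECDC and 68.4 ± 4.0 in SB431542-treated cells (SD, n = 3), while Casq2, which stores calcium beside Ryr2, had at most 3 counts. Jph2, the junctophilin of the heart, had 1771 to 2212 counts in pECDC, 1191 to 1793 in iECDC and 1265 to 1782 in SB431542-treated cells, and Fkbp1b, which binds the ryanodine receptor, 16 to 46 over all libraries. Cacna1c, the pore of the L-type calcium channel, fell in iECDC (log2 fold change -1.30, SE 0.0748, edgeR adjusted p = 1.14e-05) and was higher in SB431542-treated cells than in iECDC (1.81, SE 0.204, adjusted p = 0.0012). Its counts were 995, 754 and 932 in pECDC, 329, 273 and 237 in iECDC and 1160, 812 and 1137 in SB431542-treated cells, so that iECDC alone was low. Jph1, a junctophilin, rose in iECDC (0.31, adjusted p = 0.049) and was lower in SB431542-treated cells than in iECDC (-0.85, adjusted p = 0.00395).

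Beside Gja1 the coupling genes moved in both directions. Gja4, connexin 37 of the vessel wall, had 58, 45 and 45 counts in pECDC, 54, 36 and 33 in iECDC and 9, 16 and 8 in SB431542-treated cells (log2 fold change -2.00 against iECDC, SE 0.305, edgeR adjusted p = 0.0035). Gjc1, connexin 45, was at 8.23 ± 0.145, 8.58 ± 0.215 and 7.03 ± 0.98 FPKM, and Gja5, connexin 40 of the atrium and conduction system, had 0 to 3 counts. The desmosome gene Pkp2 rose in iECDC (1.03, SE 0.203, adjusted p = 0.00955) and was lower in SB431542-treated cells than in iECDC (-2.39, SE 0.508, adjusted p = 0.0116), with replicate 2 at 132 counts against 28 and 29. Cxadr, an adhesion protein of cell junctions, was 2.39-fold higher in SB431542-treated cells than in iECDC (1.26, SE 0.142, adjusted p = 0.0012). Of 10 tested genes of this list 2 rose and 3 fell against iECDC, where 16.0% of all genes tested rose and 14.0% fell.

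Of 22 pacemaker and conduction channel genes 9 had at most 3 counts in every library. The potassium channel gene Kcnh2 rose in SB431542-treated cells against iECDC (log2 fold change 0.72, SE 0.234, edgeR adjusted p = 0.0486).

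Parts of the natriuretic peptide system were well counted, while its cardiac ligands, their receptor Npr1 and the protease Corin were low or near 0. Furin, the protease that cuts the B-type precursor, was at 19.5 ± 0.237 FPKM in pECDC, 21.3 ± 0.925 in iECDC and 18.7 ± 1.95 in SB431542-treated cells, and Corin, which cuts the atrial precursor, had at most 1 count. Npr2, the receptor of C-type peptide, was at 10.6 ± 0.334, 10.8 ± 0.305 and 11.3 ± 1.17 FPKM. Npr1, the receptor of the atrial and B-type peptides, had 0 to 11 counts per library. Nppc, the C-type peptide precursor, fell in iECDC from 24, 23 and 40 counts to 3, 4 and 0 (log2 fold change -3.21, SE 0.556, edgeR adjusted p = 0.00521). Against iECDC 4 of the 7 tested genes of this list rose in SB431542-treated cells and 0 fell, where 16.0% of all genes tested rose and 14.0% fell. The clearance receptor gene Npr3 had 3222, 749 and 3159 counts there against 522, 545 and 250 (2.40, SE 0.561, adjusted p = 0.016), the peptide-degrading neprilysin gene Mme 441, 133 and 501 against 37, 29 and 15 (3.68, SE 0.569, adjusted p = 0.00366), and Prkg1, the cGMP-dependent kinase, 393, 138 and 417 against 36, 41 and 38 (2.96, SE 0.473, adjusted p = 0.00407). Replicate 2 was the lowest treated library for each of these genes, and still above the iECDC libraries.

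**Figure D5:**
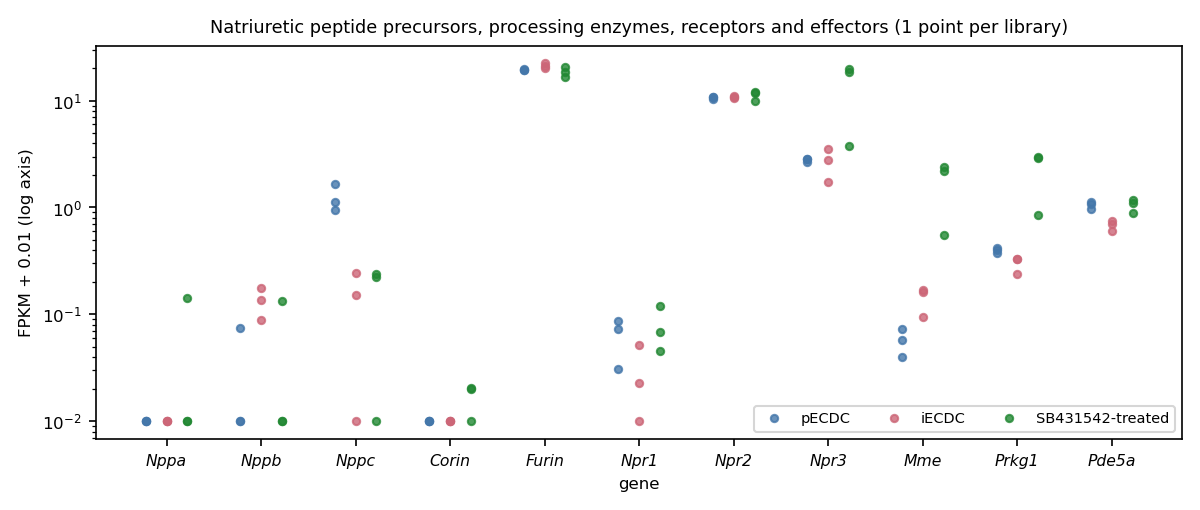
FPKM + 0.01 on a log axis for genes of the natriuretic peptide system (horizontal axis), with 1 point per library coloured by group. The ligands Nppa and Nppb sit near the bottom in every group, Furin and Npr2 are level across groups, and Npr3, Mme and Prkg1 are higher in the treated libraries.

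Among the cardiac transcription factors Nkx2-5 was at 0 in iECDC and SB431542-treated cells while Gata4 was high in every group. Nkx2-5, the homeobox factor of the cardiac lineage, had 80, 72 and 62 counts in pECDC and 0 in all 6 libraries of the other groups, which against a floor of 3 counts per library is at least 19.1-fold lower in iECDC and at least 19.7-fold lower in SB431542-treated cells. Gata4 was at 60.0 ± 1.03 FPKM in pECDC, 57.7 ± 2.94 in iECDC and 52.5 ± 4.46 in SB431542-treated cells, with no call in any comparison. In iECDC 5 of 12 tested factors fell against pECDC and 1 rose, where 9.21% of all genes tested fell and 7.21% rose. Tbx3, a factor of the conduction system, was there at -0.85 (SE 0.109, edgeR adjusted p = 0.00114) and Tbx5 at -0.50 (SE 0.11, adjusted p = 0.0162). In SB431542-treated cells Tbx20 was lower than in iECDC (-0.68, SE 0.135, adjusted p = 0.00899), as was Srf, the serum response factor of muscle genes (-0.72, SE 0.19, adjusted p = 0.0248), and Gata6 was higher (0.79, SE 0.231, adjusted p = 0.035). Of the muscle energy genes, the enolase gene Eno3 rose in iECDC (0.76, SE 0.0631, adjusted p = 9.39e-05), while creatine kinase of muscle (Ckm) had at most 1 count and Ckb, the brain form, was at 24.9 FPKM in pECDC and 18.0 in iECDC (-0.48, SE 0.0619, adjusted p = 0.0011).

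Over all 9 libraries the genes whose log2(FPKM + 1) ran most like Gja1 among 14210 genes were Hmga2, Tes and Rab23, with Pearson r of 0.998, 0.997 and 0.996. Hmga2, a chromatin protein of proliferating cells, had mean levels of 56.7, 66.2 and 12.0 FPKM in pECDC, iECDC and SB431542-treated cells. Most like Tnnt2 were Snx24 (0.981), Olfr56 (0.977) and the cation channel gene Trpc6 (0.977), and Trpc6 was at 0.219, 0.535 and 0.0713 FPKM. These coefficients describe libraries that share their group, depth and normalization, and they were picked as the highest of many.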

How the data were processed

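RNA was extracted with Trizol, and the labels and the study's methods name different library kits. The submitters' processing notes name TopHat2 2.0.9, Bowtie2 2.0.6 and mm9, without their role. Coordinates nevertheless matched GRCm38: of 54409 genes found by ID in GENCODE M21, 53499 had the same start and end, with all 10 members among them. The authors deposited 1 table of read counts per gene, without normalization, and of FPKM (counts divided by listed gene length and a constant of each library, by the authors). Group means, fold changes and p-values in the same table are the authors' own comparisons and were not used. The strand setting of the counting is not given in the sources used here.

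Counts were tested with edgeR 4.0.16 (R 4.3.3, TMM, filterByExpr with a minimum count of 10 and total of 15, quasi-likelihood F-test, Benjamini-Hochberg over all genes tested, threshold 0.05), with only the libraries of the 2 groups compared in each fit. Alternatives were DESeq2 1.42.0, limma 3.58.1 on log2(FPKM + 1) and log2(FPKM + 0.1), other scalings and filters, all 9 libraries, a replicate block, a log2 fold change of at least 1 and each replicate left out. Scripts were tested on simulated data. Leaving out iECDC replicate 3 with SB431542-treated replicate 2 was added after seeing the data. The members and lists were chosen with earlier results of these data known. Beside the members, genes named were the up to 3 largest changes per list and comparison with adjusted p under 0.05 and at least 1 FPKM in the higher group, the most abundant gene of a list without such, members' paralogs, the 3 most alike genes of members reaching 1 FPKM, and genes at or near 0. Other genes of the lists (Tpm1, Tpm2, Atp2a2, Jph2, Fkbp1b, Gjc1, Gata4, Furin, Npr1 and Npr2) are given for their role and were chosen after their values were seen. Coding sequences were the longest open reading frames of the longest coding GENCODE transcripts.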

Additional observations from a re-analysis of the deposited data

How the results depend on the processing

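Counts of calls are given for iECDC against pECDC, treated cells against iECDC and treated cells against pECDC, in this order. With 1 replicate left out at a time, calls numbered 1 to 1, 2 to 2 and 0 to 2 among the members, 9 to 33, 13 to 39 and 18 to 51 in the other 9 lists (19, 25 and 28 with all libraries), and 1036 to 4467, 1707 to 7001 and 2453 to 9188 over all genes (2258, 4061 and 4881). The cause was not tested. With all 9 libraries in the fit the calls of iECDC against pECDC were 0 members, 8 listed genes and 671 genes in all. A log2 fold change of at least 1 left 6, 14 and 17 listed genes and 512, 1434 and 1330 genes. With at least 10 counts required in every library, members called were 1 in each comparison of the treated cells, since Tnnt2 was no longer tested, and listed genes against pECDC were 18. Without iECDC replicate 3 and SB431542-treated replicate 2 the treated cells differed from iECDC in 50 listed genes and 8951 genes. Tnni3 in treated cells against iECDC lay between -0.14 (without SB431542-treated replicate 3) and 0.59 (without SB431542-treated replicate 2). Of the alternatives to these counts of calls 102 stayed within 1.5 times and 45 did not.

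Same-numbered libraries did not deviate together (r from -0.26 to 0.05), and the main tests were unpaired. The library that stood apart was replicate 3 in iECDC and replicate 2 in SB431542-treated cells. With such outliers in small groups, these values cannot exclude that same-numbered libraries shared a culture or batch. With a replicate block the members called were 1 in treated cells against pECDC, where Tnnt2 was at -1.79 (adjusted p = 0.0586). Depth limits the 7 genes near 0, which the count filter left out of the main fits. With no filter on low counts, 8 members were tested in iECDC against pECDC and 1 was called. In treated cells 8 were tested against iECDC and 10 against pECDC, with 2 called in each. These were Tnnt2 and Gja1, as in the main fits, and a few counts leave little to detect. Depth also limits Tnnt2 in the treated cells, where 7 counts in replicate 2 carry a wide counting error.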

Other observations

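The marker lists beside smooth muscle held changes of their own in SB431542-treated cells. Of the epicardial markers 3 of 6 tested rose and 1 fell against iECDC, where 16.0% of all genes tested rose and 14.0% fell. The sum over the 11 epicardial genes was 66.3 to 68.8 FPKM in SB431542-treated cells, 51.7 to 60.4 in iECDC and 45.3 to 46.7 in pECDC. Abundant genes carry such a sum, with Krt19 alone at 30.0 FPKM in iECDC. Upk3b, a surface protein of mesothelial cells, had 72, 97 and 87 counts in treated cells against 4, 8 and 9 in iECDC (log2 fold change 3.45, SE 0.35, edgeR adjusted p = 0.000912), and Tcf21, a factor of epicardial and fibroblast precursors, 65, 68 and 57 against 28, 22 and 14 (1.47, SE 0.255, adjusted p = 0.00565). In treated cells these 2 genes were at only 1.28 and 1.43 FPKM. Aldh1a2, which makes retinoic acid, went the other way at 9, 26 and 21 counts against 126, 93 and 111 (-2.68, SE 0.315, adjusted p = 0.00138). Of the fibroblast markers 4 of 8 tested rose and 1 fell, led by the matrix proteoglycan gene Dcn at 1784, 421 and 1975 counts against 46, 52 and 43 (4.83, SE 0.636, adjusted p = 0.00205). Actn3, the α-actinin of fast skeletal fibres, had 88, 127 and 109 counts against 41, 37 and 36 (1.38, SE 0.199, adjusted p = 0.00284). Erg, an endothelial factor, had at most 11 counts in any library. Of the blood markers the macrophage lysozyme gene Lyz2 rose in iECDC from 14, 14 and 16 counts to 77, 57 and 67 (2.55, SE 0.211, adjusted p = 9.39e-05), while Ptprc, the leukocyte common antigen, had 0 to 4.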
